A study of Rattus norvegicus with 15 samples.

Results

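This account covers 9 rat genes of the microsomal electron transfer chain and of heme synthesis, measured in liver after exposure to the insecticide fipronil, which blocks chloride channels of insect nerve cells. The electron transfer genes are Por, Cyb5r3, Cyb5a, Cyb5b and Pgrmc1, and the heme synthesis genes are Alas1, Alad, Cpox and Fech. Every array probe that names one of them, by its current symbol or an older one, was taken, which gave 11 probes out of 41012 and 9 genes out of the 15037 to which a probe could be assigned. Cyb5r3 and Cyb5b had 2 probes each and the other 7 genes 1 probe each. Female Wistar Crl:WI rats aged 2 to 3 months were dosed orally with fipronil for 14 days, at 3 mg/kg each day (n = 8). The rats set against them received the vehicle alone by the same route over the same 14 days, an aqueous mixture of 0.5% methylcellulose and 0.01% Tween 80 (n = 7). RNA from the large liver lobe of each rat was labelled with Cy3 and hybridised to 1 one-colour Agilent array, and no RNA was pooled. The 15 arrays lay on 4 slides, each of which held both groups.

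Cytochromes P450 in the endoplasmic reticulum need electrons for every reaction they catalyse. Por passes them from NADPH, and cytochrome b5 with its reductase can supply an electron as well. Each P450 also carries a heme group, which is built partly in mitochondria and partly in the cytosol, and the liver uses much of its heme for P450s. Many drugs and pesticides raise P450 transcripts in rodent liver through the receptors CAR and PXR, and Alas1 and Por are among the genes that activators of these receptors can induce. In these livers the P450 transcript Cyp3a23-3a1, a classic PXR target, had signals of 7.76, 8.00 and 8.22 (lowest, median and highest) in fipronil rats, against 2.80, 4.09 and 4.57 in vehicle rats. Signal here means the log2 intensity of a probe minus that of the 75th percentile on its own array. Cyp3a23-3a1 was higher in every fipronil rat than in any vehicle rat (log2 difference 4.08 ± 0.23 SE, limma adjusted p = 3.60e-08), and Cyp3a18 rose as well (1.97 ± 0.15, adjusted p = 8.48e-07). Neither probe was saturated, and cross-hybridisation between related Cyp3a genes was not checked.

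The 8 probes of the electron transfer and heme genes that were never saturated had differences of -0.23 to 0.36, where those of these P450s were 4.08 and 1.97. The probes of Cyb5a, Alas1 and Alad reached the limit of the scanner, and their differences were not fully measured, as given below. Of all 11 probes, 1 passed the test, that of Pgrmc1, which rose by a factor of 1.29. Over all 23256 probes tested, 0.821% passed, 0.533% higher and 0.288% lower with fipronil. All 11 probes were well above background on all 15 arrays, so none was lost to the filter on dim probes. Differences of the 8 probes without saturated spots had a median of 0.22 on the log2 scale, with 7 positive and 1 negative, and those of all 11 had a median of 0.19. The median over all probes tested was -0.02. Unadjusted p values were under 0.05 for 2 of these 8 probes (Pgrmc1 and Fech), against 17.2% of all probes tested. They were also under 0.05 for all 3 saturated probes, as they were for 76 of the 83 probes saturated on every array. Since the tissue was whole liver, fewer cells of a type and less RNA per cell cannot be told apart.

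**Figure D1:**
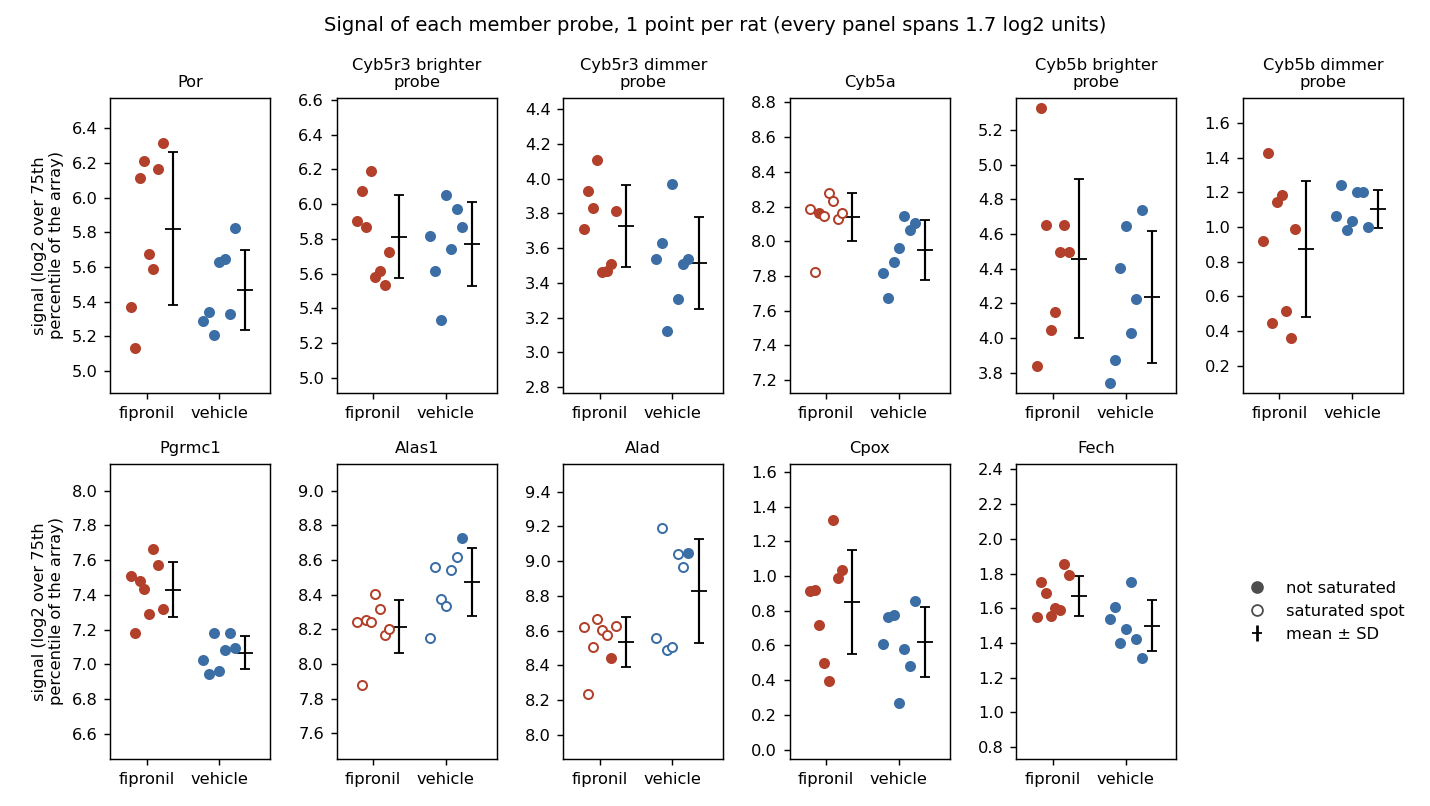
Signal of the 11 probes (vertical axis, log2 over each array's 75th percentile) in each fipronil rat (left, n = 8) and each vehicle rat (right, n = 7). Open points are spots that the scanner marked as saturated, and bars are means ± SD. The groups do not overlap for Pgrmc1, and the points of Por in fipronil rats form an upper set of 4 and a lower set of 4.

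2 features of the arrays touch the results below. The arrays of fipronil rats were brighter, with a 75th percentile of intensity of 209.9 ± 25.8 (SD, n = 8) against 171.5 ± 33.3 in vehicle rats (SD, n = 7; exact permutation p = 0.0202, adjusted p = 0.0477 over 5 array measures). The scanner cannot read above an intensity of 65502, a limit that applies before background subtraction and correction for position on the array. After each array was scaled to its own 75th percentile, this ceiling stood at a signal of 7.93 to 8.47 on fipronil arrays and 8.26 to 9.15 on vehicle arrays. It was lower by 0.31 on average with fipronil. Because of those corrections, a single saturated spot can read above or below the ceiling. The 83 probes that were saturated on all 15 arrays gave a median difference of -0.31 (range -0.34 to -0.22), all of them negative. A negative difference near -0.31 in a saturated probe is thus the value that the ceiling itself gives on this scale. Among the 9 genes, Alas1, Alad and Cyb5a had saturated spots. The other 8 probes had none.

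No cell type marker passed the test. The 6 hepatocyte markers were all tested, with a median difference of -0.23, and 4 of them (Alb, Apoa1, Ttr and Serpina1) had saturated spots; without these the median was -0.08. Of 11 erythroid markers, which matter because red cell precursors make heme, 6 were tested, with a median of -0.04, and their summed level was 10.4 to 31.6 in fipronil rats and 12.0 to 62.0 in vehicle rats, in multiples of each array's 75th percentile. Klf1 and Rhag were among those not well above background on enough arrays to be tested. Of 8 Kupffer cell markers, 5 were tested, with a median of 0.21 and all 5 positive, and their summed level was 53.1 to 118.7 in fipronil rats and 38.3 to 132.7 in vehicle rats.

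Por encodes NADPH-cytochrome P450 oxidoreductase, the flavoprotein that hands electrons to every microsomal P450 and to heme oxygenase. Its probe spans chr12:22079298-22079446 on the minus strand of build rn4, as the array files give it. Signals on slides 1, 2, 3 and 4 were 5.37 and 5.13, 6.11 and 6.21, 5.67 and 5.59, and 6.16 and 6.31 in the 8 fipronil rats. In the 7 vehicle rats they were 5.29 and 5.34, 5.21 and 5.63, 5.65, and 5.33 and 5.83 on the same slides. The 4 fipronil rats of slides 2 and 4 were all above the highest vehicle rat, the 4 of slides 1 and 3 lay within or below the range of the vehicle rats, and the groups overlapped. The mean was 5.82 ± 0.44 in fipronil rats and 5.47 ± 0.23 in vehicle rats (SD), a log2 difference of 0.35 ± 0.17 SE (95% interval -0.01 to 0.72, 1.28-fold) that did not pass the test (limma adjusted p = 0.311).

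The difference for Por was 0.75 on slide 2 and 0.66 on slide 4, but -0.06 on slide 1 and -0.02 on slide 3. A test of whether it varied between slides gave an unadjusted p of 0.0319 and, over all probes tested, a limma adjusted p of 0.487. No probe of the whole array passed that test, so the split between slides is a description of these 8 rats. Fipronil arrays took positions 1 and 2 on slides 1 and 3 and positions 3 and 4 on slides 2 and 4, and vehicle arrays took the other positions, with 1 vehicle array, at position 4, on slide 3. With array position as a block the difference was 0.33, and its part in the split was not tested. Over all the alternatives the fitted difference lay between 0.22 and 0.57, and none of them called Por.

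**Figure D2:**
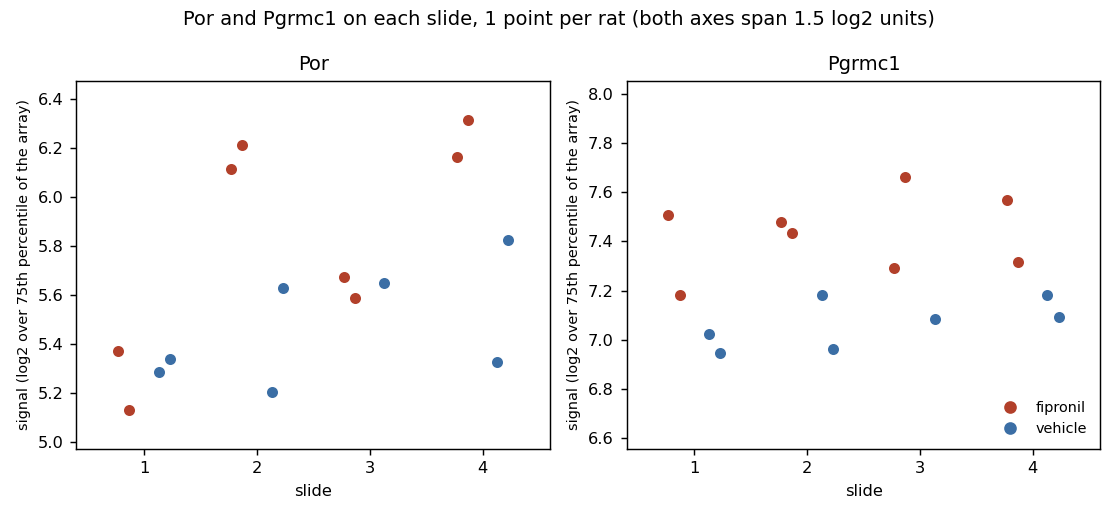
Signal of Por (left panel) and Pgrmc1 (right panel), in log2 over each array's 75th percentile, by slide (horizontal axis), with fipronil rats in red left of vehicle rats in blue. For Por the fipronil rats stand at 6.11 or higher on slides 2 and 4 and beside the vehicle rats on slides 1 and 3; for Pgrmc1 they stand above the vehicle rats on all 4 slides.

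The promoter window of Por is shown because Por is the entry point of electrons and the probe that split by slide. It covers 250 bases before to 50 bases after the transcript start, at chr12:26635760-26636059 on the minus strand of GRCr8, and comes from RefSeq. Capitals mark the nuclear receptor half-site AGGTCA, read here on its other strand as TGACCT, and the GC box GGGCGG, each searched on both strands.
Por: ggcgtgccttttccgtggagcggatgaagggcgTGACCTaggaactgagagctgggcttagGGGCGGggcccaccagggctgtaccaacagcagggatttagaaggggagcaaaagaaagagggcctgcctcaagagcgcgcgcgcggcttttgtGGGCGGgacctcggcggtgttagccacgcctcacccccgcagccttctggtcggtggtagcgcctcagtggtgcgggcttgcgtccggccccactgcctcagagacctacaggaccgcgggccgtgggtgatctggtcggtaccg
The half-site begins 217 bases before the start, and 16.2% of 33469 rat promoter windows of the same length hold one. Among the 8 genes here that have a window in the table, Por alone holds this half-site. Por has 2 GC boxes, a motif found in 6 of the 8 windows and in 33.1% of all windows. A match is a description of the letters and shows no binding.

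Cyb5r3 encodes NADH-cytochrome b5 reductase, which keeps cytochrome b5 reduced. Its brighter probe, at chr7:121188247-121188306 on the minus strand of rn4, had signals of 5.53, 5.80 and 6.19 (lowest, median and highest) in fipronil rats, against 5.33, 5.82 and 6.05 in vehicle rats. The groups lay over one another, with a difference of 0.04 ± 0.12 SE (95% interval -0.22 to 0.30, adjusted p = 0.905), whose sign turned when slide 1 or slide 2 was left out. The dimmer probe, at chr7:121192669-121192728, gave 3.46, 3.76 and 4.11 in fipronil rats and 3.12, 3.53 and 3.97 in vehicle rats. Its difference of 0.21 ± 0.13 was positive on all 4 slides and did not pass the test either (adjusted p = 0.410). Once group means were removed, both probes followed each other over the 15 arrays (Pearson r = 0.85, permutation p = 6.0e-05; Spearman rho = 0.78, permutation p = 0.00093; adjusted p = 0.00012 and 0.0019 over 2 gene pairs). Without the 2 arrays farthest from the median, r was 0.74 (permutation p = 0.0032).

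Cyb5a encodes microsomal cytochrome b5, the electron carrier that Cyb5r3 reduces, and the array files call it by the older symbol Cyb5. Its probe lies at chr18:81434872-81434931 on the plus strand of rn4. Before scaling, its intensity ran from 56273 to 61040 in fipronil rats, with a median of 58613, against 31769 to 48809 in vehicle rats, with a median of 45039. The lowest fipronil rat was thus above the highest vehicle rat, on a scale that still carries the greater brightness of the fipronil arrays. How many of all probes separate the groups on this unscaled intensity was not counted, so the separation is not read as a difference in Cyb5a. The scanner marked the spot as saturated in 7 of 8 fipronil rats and in 0 of 7 vehicle rats, and 46.9 to 98.4% of its pixels were saturated with fipronil and 0% with vehicle. Fipronil arrays also held more saturated probes of any gene, 168.3 ± 17.0 against 134.4 ± 26.8 on vehicle arrays (mean ± SD). The exact permutation p was 0.0115 (adjusted p = 0.0477 over 5 array measures).

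On the scaled signal the groups overlapped, at 7.82, 8.16 and 8.28 in fipronil rats (lowest, median and highest) and 7.67, 7.96 and 8.15 in vehicle rats. The difference was 0.19 ± 0.09 SE (adjusted p = 0.286) and was positive on all 4 slides. In all 8 fipronil rats the signal is a lower limit, because the scanner cut the brightest pixels. That includes replicate 3, whose spot was not marked as saturated but had 46.9% saturated pixels. The difference is thus one between lower limits and measured values. With quantile normalization in place of the percentile, Cyb5a passed the test from normexp-corrected mean intensity (0.30, adjusted p = 0.0120, where 0.671% of all probes passed), from median intensity (0.38, adjusted p = 0.00571, 0.748% passing) and in the authors' deposited table (0.38, adjusted p = 0.00450, 0.818% passing). It did not pass from the processed intensity (0.28, adjusted p = 0.0656). Cyb5a was higher with fipronil in each of these, and the call rests on the choice of normalization and starting values. Values cut by the scanner enter each of them too. The spread among fipronil rats, on which these p values rest, is therefore not fully measured.

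Cyb5b encodes the cytochrome b5 of the outer mitochondrial membrane. Its brighter probe, at chr19:37048700-37048759 on the plus strand of rn4, read 3.84, 4.50 and 5.33 in fipronil rats (lowest, median and highest) and 3.74, 4.22 and 4.74 in vehicle rats (difference 0.22 ± 0.20 SE, adjusted p = 0.622). Its dimmer probe, at chr19:37050218-37050277, read 0.36, 0.95 and 1.43 in fipronil rats and 0.99, 1.07 and 1.24 in vehicle rats, a difference of the opposite sign (-0.23 ± 0.15, adjusted p = 0.445). For the dimmer probe 4 fipronil rats lay below the lowest vehicle rat. After group means were removed the probes did not move together (Pearson r = -0.06, permutation p = 0.83; Spearman rho = -0.31, permutation p = 0.26; adjusted p = 0.83 and 0.26 over 2 gene pairs). Without the 2 arrays farthest from the median, r was -0.57 (permutation p = 0.042). No direction is given for Cyb5b as a gene.

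Pgrmc1 encodes a heme-binding membrane protein with a fold like that of cytochrome b5, which binds P450s and is also known to contact ferrochelatase. Its probe lies at chrX:8265716-8265775 on the minus strand of rn4. On slides 1, 2, 3 and 4, signals were 7.51 and 7.18, 7.48 and 7.44, 7.29 and 7.66, and 7.57 and 7.32 in fipronil rats. In vehicle rats they were 7.02 and 6.95, 7.18 and 6.96, 7.08, and 7.18 and 7.09. Every fipronil rat was above every vehicle rat, though only just, since fipronil replicate 2 stood at 7.1825 and the highest vehicle rat at 7.1822. Over all probes tested, every fipronil rat was above every vehicle rat in 0.374%.

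Pgrmc1 averaged 7.43 ± 0.16 in fipronil rats and 7.07 ± 0.10 in vehicle rats (SD). The log2 difference was 0.36 ± 0.08 SE, or 1.29-fold (95% interval 1.14 to 1.45), with a limma adjusted p of 0.0490. Within slides 1, 2, 3 and 4 it was 0.36, 0.38, 0.39 and 0.31, so its size hardly varied between slides. The call itself sat at the threshold and held in 14 of 35 alternatives. With quantile normalization it held from normexp-corrected mean intensity (0.39, adjusted p = 0.00704) and from processed intensity (0.38, adjusted p = 0.0120). The call also held from median intensity (0.39, adjusted p = 0.00857) and in the authors' deposited table (0.39, adjusted p = 0.00889). It was lost with the slide as a block (0.36, adjusted p = 0.0605), with each array's brightness as a covariate (0.41, adjusted p = 0.155), and on leaving out any 1 array other than fipronil replicates 2 and 5 and vehicle replicate 3 (0.33 to 0.38, adjusted p 0.0628 to 0.106).

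The promoter window of Pgrmc1 is shown because it is the gene whose transcript passed the test. It lies at chrX:120698360-120698659 on the plus strand of GRCr8, with the same limits around the start and from the same source. The array files place the probe elsewhere on the X chromosome and on the other strand of rn4, and coordinates of the builds were not compared. The probe was taken as that of Pgrmc1 by the gene name in the array files. Capitals mark GC boxes on either strand and 1 match to the antioxidant response element core TGACNNNGC.
Pgrmc1: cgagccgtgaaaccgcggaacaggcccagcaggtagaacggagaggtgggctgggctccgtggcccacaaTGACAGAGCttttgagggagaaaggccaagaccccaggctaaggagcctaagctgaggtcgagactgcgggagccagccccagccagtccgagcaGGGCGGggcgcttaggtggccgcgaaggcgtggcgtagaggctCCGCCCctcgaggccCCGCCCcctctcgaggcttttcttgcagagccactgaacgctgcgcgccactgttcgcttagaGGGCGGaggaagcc
The core begins 180 bases before the start, and 12.1% of all windows hold one, as does 1 of the 8 windows of these genes. There are 4 GC boxes.

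**Figure D3:**
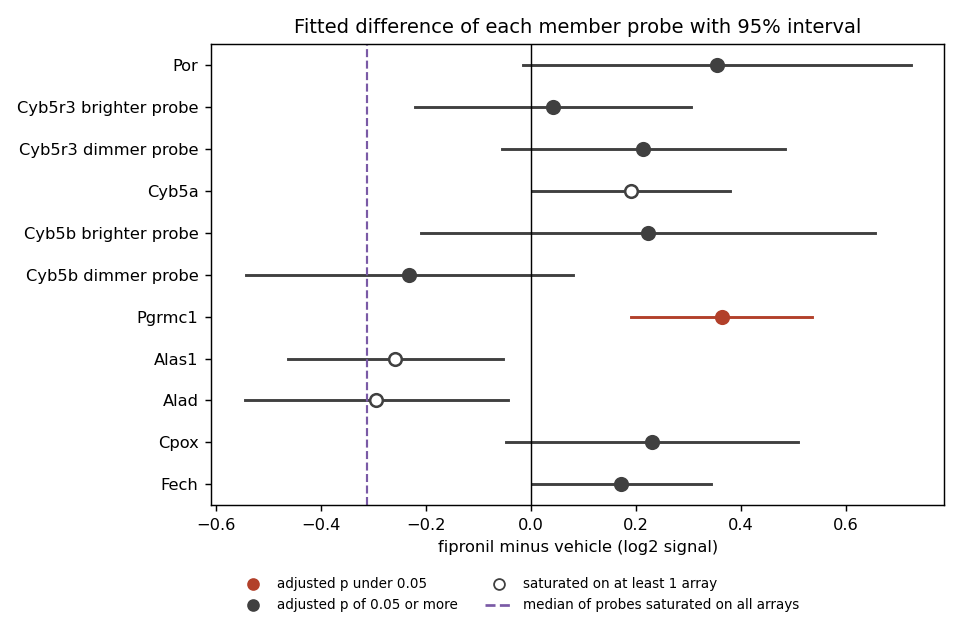
Difference of fipronil minus vehicle in log2 signal (horizontal axis) for the 11 probes, with 95% intervals from limma. The probe in red is Pgrmc1, which passed the test; open points had saturated spots; the dashed line at -0.31 is the median of the 83 probes saturated on all arrays, beside which Alas1 and Alad fall.

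Alas1 encodes 5-aminolevulinate synthase 1, the rate-limiting first enzyme of heme synthesis in liver, and is repressed by heme itself. The array files give no position for its probe. The spot was saturated in 8 of 8 fipronil rats and in 6 of 7 vehicle rats. Before scaling its intensity was 60291 to 63581 in fipronil rats, with a median of 62144, against 48816 to 65148 in vehicle rats, with a median of 60908. Saturated pixels made up 96.9 to 100% of the spot in fipronil rats and 0 to 96.9% in vehicle rats. Vehicle replicate 7 was the one array on which Alas1 was measured below the ceiling, and it was also the dimmest array, with a 75th percentile of 115.4.

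Scaled signals of Alas1 were 7.88, 8.24 and 8.41 (lowest, median and highest) in fipronil rats and 8.15, 8.54 and 8.72 in vehicle rats. The fitted difference was -0.26 ± 0.10 SE (adjusted p = 0.197), close to the -0.31 of probes at the ceiling. No fold is given, because all fipronil values are lower limits. Its sign changed with the processing: it was 0.02 after normexp and quantile normalization and 0.00 both from median intensities and in the authors' deposited table (adjusted p 0.833 to 0.979). These arrays therefore do not show whether Alas1 transcript differed between the groups.

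Alad encodes aminolevulinate dehydratase, the cytosolic enzyme that makes porphobilinogen, the next step of the pathway. Its probe lies at chr5:79505653-79505712 on the minus strand of rn4 and was saturated in 7 of 8 fipronil rats and 6 of 7 vehicle rats. Unscaled intensities were 71927 to 81524 in fipronil rats and 61128 to 92270 in vehicle rats, above the ceiling on most arrays. The processed intensity includes a correction for position on the array, whose part in these values was not tested. Signals were 8.23, 8.59 and 8.67 in fipronil rats and 8.49, 8.97 and 9.19 in vehicle rats, with a difference of -0.29 ± 0.12 SE (adjusted p = 0.225) that turned to 0.02 under quantile normalization of the same intensities. The value was again close to that of probes at the ceiling. With saturated spots left out, too few arrays remained to test Cyb5a, Alas1 or Alad.

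**Figure D4:**
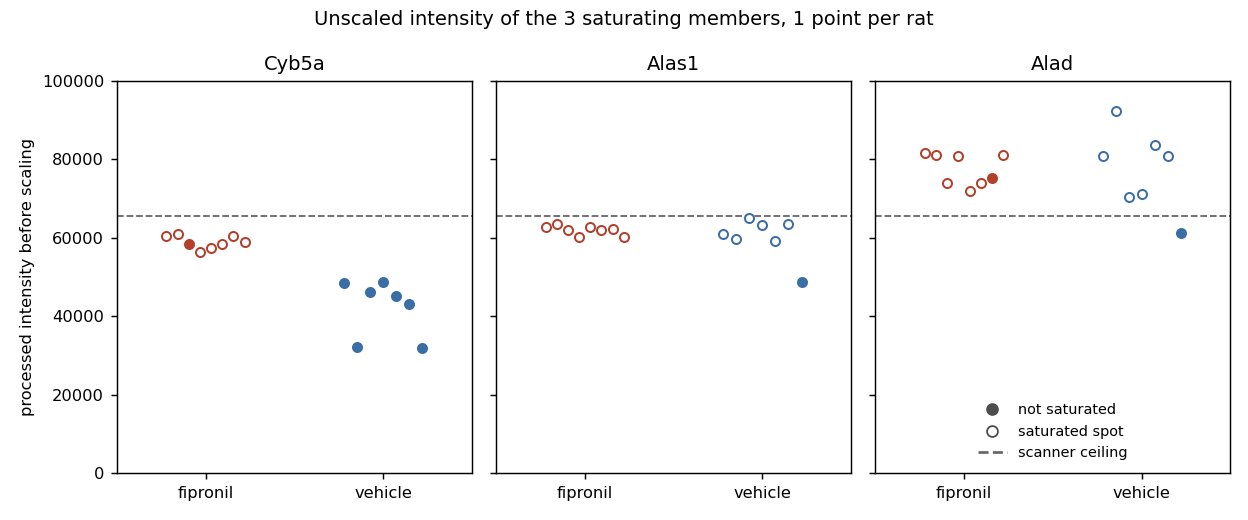
Processed intensity before scaling (vertical axis, from 0) of Cyb5a, Alas1 and Alad in each fipronil rat (left) and each vehicle rat (right). Open points are saturated spots. The dashed line is the scanner ceiling of 65502, which applies before background and position corrections, so saturated spots lie on both sides of it. For Cyb5a the fipronil rats lie at 56273 to 61040 and the vehicle rats at 31769 to 48809, while for Alas1 and Alad most rats of both groups have saturated spots.

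The promoter window of Alas1 is shown because this gene sets the pace of the pathway. It lies at chr8:115768593-115768892 on the minus strand of GRCr8, from the same RefSeq table. Capitals mark a match to the NRF1 motif, the only letters searched for that factor, which read the same on both strands. NRF1 is a transcription factor of genes for mitochondrial proteins.
Alas1: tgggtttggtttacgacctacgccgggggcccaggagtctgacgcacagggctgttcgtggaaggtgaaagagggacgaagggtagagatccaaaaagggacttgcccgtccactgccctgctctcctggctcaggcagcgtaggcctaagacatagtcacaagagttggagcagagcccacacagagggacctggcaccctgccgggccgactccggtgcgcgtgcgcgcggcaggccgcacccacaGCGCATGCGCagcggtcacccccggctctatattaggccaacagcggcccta
The match begins 2 bases before the start. Of all windows, 0.852% hold this motif, and among the 8 windows of these genes only that of Alas1 does. No probe on the array could be assigned to the NRF1 transcript itself.

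Cpox encodes coproporphyrinogen oxidase of the mitochondrial intermembrane space, a late step of the pathway. Its probe at chr11:42748792-42748851 on the minus strand of rn4 read 0.40, 0.92 and 1.33 in fipronil rats (lowest, median and highest) and 0.27, 0.61 and 0.85 in vehicle rats. Higher values predominated with fipronil, where 5 of 8 rats exceeded the highest vehicle rat, and the difference was positive on all 4 slides, but at 0.23 ± 0.13 SE it did not pass the test (adjusted p = 0.387).

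Fech encodes ferrochelatase, the last enzyme, which inserts iron into protoporphyrin. Its probe at chr18:60680214-60680273 on the minus strand of rn4 read 1.55, 1.65 and 1.85 in fipronil rats and 1.31, 1.48 and 1.75 in vehicle rats. All 8 fipronil rats were above the vehicle mean, yet the groups overlapped, and the difference of 0.17 ± 0.08 SE (1.13-fold) did not pass (adjusted p = 0.288). It was -0.16 on slide 3 and 0.46 on slide 4.

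The other genes of these pathways were taken as 6 lists. Of their genes 73 were tested, by the brightest probe of each, and 0 passed the limma test, while 13 had an unadjusted p under 0.05. Of these 13, 6 had saturated spots, and among the 65 genes without any there were 7, against 17.2% of all probes tested. The median difference of the 73 was -0.04, with 31 positive, and that of the 65 was -0.02. Among the other heme synthesis genes, 12 of 13 were tested, 6 positive and 6 negative, with a median of 0.00. Alas2, the erythroid form of the first enzyme, read 2.36, 3.39 and 3.87 in fipronil rats and 2.54, 3.08 and 4.94 in vehicle rats (-0.07 ± 0.32 SE). Uros and Urod, which act between Alad and Cpox, had differences of 0.23 ± 0.09 (adjusted p = 0.224) and -0.05 ± 0.10. Ppox, which acts between Cpox and Fech, differed by 0.01 ± 0.11. None of these 4 was saturated.

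Among other electron transfer genes, 11 of 14 were tested and the median difference was 0.03. The mitochondrial carriers that serve the P450s of that compartment differed by -0.13 ± 0.13 SE (Fdx1, ferredoxin) and -0.06 ± 0.10 (Fdxr, its reductase). Cyb5r1, a relative of Cyb5r3, differed by 0.18 ± 0.22. Pgrmc2, the paralog of Pgrmc1, read 1.64, 2.04 and 2.49 in fipronil rats and 1.90, 2.31 and 2.50 in vehicle rats, a difference of -0.22 ± 0.13 (adjusted p = 0.392), and the difference between both paralogs was not tested.

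Of the heme degradation and binding genes, 11 of 14 were tested, with a median of -0.05. Hmox1, the inducible heme oxygenase, read 1.83, 2.60 and 3.43 in fipronil rats and 1.82, 2.48 and 3.49 in vehicle rats (0.18 ± 0.26 SE, adjusted p = 0.781). 5 of the 11 had saturated spots, and these 5 had the most negative differences, among them Hpx, the plasma heme carrier (-0.33 ± 0.12, saturated on all 15 arrays), and Tdo2, a liver heme enzyme (-0.23 ± 0.10, saturated in 4 of 8 fipronil rats and 2 of 7 vehicle rats). Without saturated genes the median was -0.01.

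Among the regulators of Alas1 and P450 genes, 13 of 16 were tested, with a median of -0.07. The transcripts of both xenobiotic receptors had differences of -0.03 ± 0.14 SE for Nr1i2, which encodes PXR, and 0.01 ± 0.19 for Nr1i3, which encodes CAR. Nr1d1, a clock repressor, differed by -0.34 ± 0.13 (adjusted p = 0.198) and Bach1, a heme-sensing repressor, by -0.10 ± 0.08. Ppargc1a, a coactivator of Alas1, was not well above background on enough arrays to be tested.

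Of the genes that supply NADPH, 11 of 12 were tested, with a median of -0.02. Me1, malic enzyme, had the highest difference of the 73 list genes, with 2.93, 3.38 and 4.10 in fipronil rats against 2.31, 2.82 and 3.51 in vehicle rats (0.71 ± 0.20 SE, adjusted p = 0.105). Me1 passed the test in 1 of the 35 alternatives, without vehicle replicate 3 (0.83, adjusted p = 0.0441). Of the iron handling genes, 15 of 15 were tested, with a median of -0.05, and Tfrc, the transferrin receptor, differed by 0.09 ± 0.18.

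**Figure D5:**
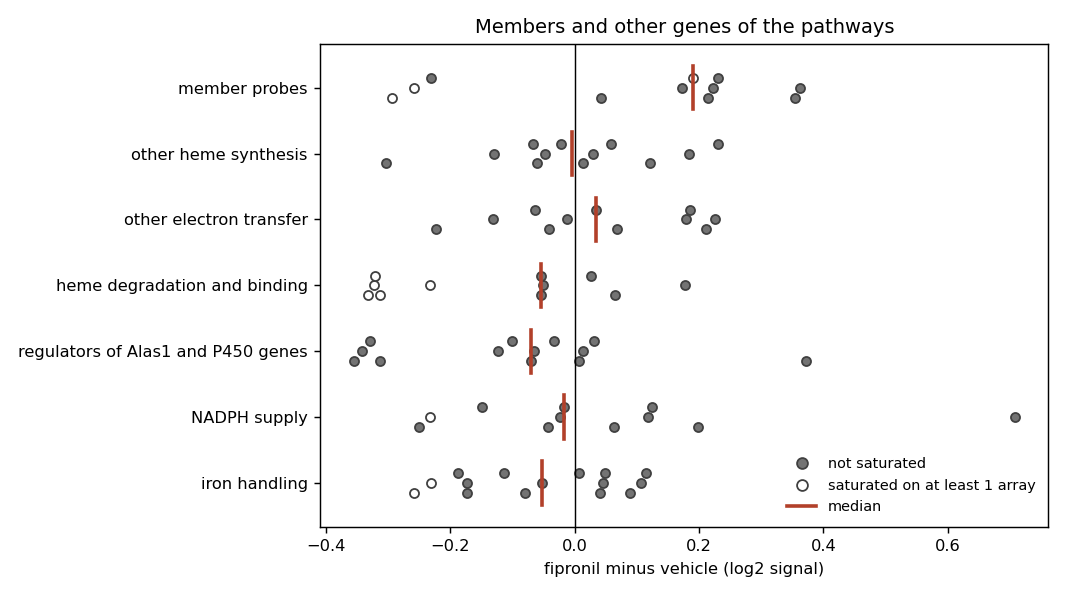
Difference of fipronil minus vehicle in log2 signal (horizontal axis) for the 11 member probes (top row) and for the tested genes of the 6 lists, 1 point per gene. Red bars are medians, 0.19 in the top row and between -0.07 and 0.03 in the lists, and open points had saturated spots; the point farthest right is Me1 at 0.71.

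Of 8 P450 genes measured, Cyp3a23-3a1 and Cyp3a18 passed the test and 6 did not, among them Cyp1a2 (-0.13 ± 0.21 SE), Cyp4a1 (-0.69 ± 0.18, adjusted p = 0.0772) and Cyp7a1, the rate-limiting enzyme of bile acid synthesis (-0.54 ± 0.45). Cyp2e1 was saturated in 8 of 8 fipronil rats and 1 of 7 vehicle rats, so that its fipronil signal is a lower limit (-0.04 ± 0.09). No probe could be assigned to Cyp2b1 or Cyp2b2, the usual CAR targets, which were not analysed here.

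The genes whose pattern over the 15 arrays was most like that of Por were found by the root mean square difference between signals centred on their own means, over 10085 genes. They were Chpf, Cyp27a1, Nherf1, Sord and Acy3, at 0.22 to 0.24, where the median gene stood at 0.44 and Por varied by 0.38 about its own mean. None of these 5 passed the test between groups. Those most like Alas1 were Gsta2, Vkorc1, Azgp1, Itih4 and Cyp4f1, at 0.03 to 0.05, and all of them had saturated spots, on 9 to 14 of the 15 arrays.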

How the data were processed

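Per the file headers, each array file holds the intensity of every spot, 0 or 1 flags for saturation, outliers and signal above background, and probe positions on build rn4, written by Agilent Feature Extraction 9.5.3.1. Processed intensity was background subtracted and corrected for position on the array, per the file headers, with no scaling between arrays. The deposited value table holds log2 values for 22244 probes, and the submitters' processing notes name limma. Its columns rank probes as the median intensity does (Spearman 0.99999 or more across probes), so it was read as log2 median intensity, quantile normalized. The deposited position, chromosome and flag columns (unit other, per the file headers) were used to place and filter probes.

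Outlier spots were left out, spots of a probe averaged, and log2 processed intensity set relative to the 75th percentile of the array. Of 41012 probes, 10768 were named by accession, 5060 by symbol and 3398 by synonym in a RefSeq table of GRCr8, and 21786 were not named. The 23256 probes well above background on at least 7 arrays, with at most 3 missing, were compared with limma 3.58.1 in R 4.3.3 (lmFit and eBayes, two-sided, no covariates), at a Benjamini-Hochberg adjusted p under 0.05 over all of them. The fit was tested on simulated data. SE is the error of a fitted difference, and intervals hold 95%. Single values per array were compared by exact permutation tests, and correlations by 100000 permutations (scipy, Python). The number of arrays limits the precision. In all 105 pairs of arrays values differed, by a median of 0.16 or more log2, and each was counted as a sample of its own.

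The 9 members, the 6 pathway lists and the marker lists were chosen with earlier results of these data known. Named were every member probe, list genes that passed, genes set out with the lists (a few are not reported here), and the 5 genes most like Por and Alas1; Me1, Cyp3a18, Hpx and Tdo2 belong to those lists. 35 alternatives in background correction, normalization, filters, saturated spots, slide, position, brightness, weights, pairing and left-out arrays were run. Probe sequences and the exon under a probe are not given, since no genome of build rn4 was used here.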

Additional observations from a re-analysis of the deposited data

Results flagged for a closer look

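3 values stood far from the others of their group by Dixon's gap test, out of 28 group and measure combinations, where chance alone picks out about 1 in 20. All 3 belong to fipronil replicate 2. Its array had the highest 75th percentile of its group, at 8.07 on the log2 scale. Cyb5a had its lowest fipronil signal there, at 7.82, and Alas1 its lowest, at 7.88. Both spots were saturated on that array, whose scanner ceiling lay at a signal of 7.93, the lowest of all 15 arrays. Unscaled, both were the highest of the fipronil group, at 61040 for Cyb5a and 63581 for Alas1.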

How the results depend on the processing

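Pgrmc1 kept its direction in all 35 alternatives (0.33 to 0.43) but was called in 14. Its call was lost without the filter on dim probes (0.36, adjusted p = 0.114), with slide (0.36, 0.0605), array position (0.36, 0.111), brightness (0.41, 0.155) or the replicate block (0.38, 0.0924) in the fit, and without slides 1 to 4 in turn (0.36, 0.36, 0.35 and 0.39; adjusted p 0.225, 0.122, 0.0929 and 0.278). Leaving out 1 array gave 0.33 to 0.40, with 3 of 15 calls. The member probes called thus numbered 0 under each of those settings, 0 to 1 on leaving out 1 array, and 2 (Pgrmc1 and Cyb5a) with normexp, median intensity or the authors' deposited table, where Cyb5a reached 0.30, 0.38 and 0.38. Negative turned to positive for Alas1 with those (0.019, 0.0033 and 0.0035) and for Alad with quantile normalization of processed intensity (0.019). The brighter Cyb5r3 probe turned negative without slide 1 (-0.039) or slide 2 (-0.063), and ran from -0.031 to 0.089 without single arrays. No other member probe changed sign or call under these alternatives. Within single slides, untested, Por gave -0.063, 0.75 and -0.017 on slides 1 to 3, the brighter Cyb5r3 probe 0.34 on slide 2 and -0.29 on slide 4, the brighter Cyb5b probe 0.78 on slide 1, Alas1 -0.49 on slide 4, Alad 0.090 on slide 2, and Fech -0.16 and 0.46 on slides 3 and 4. The cause was not tested; saturated spots limit Cyb5a, Alas1 and Alad.

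Over the whole array 191 probes were called, against 90 without the filter, 117 with position, 42 with brightness, 97 with the replicate block, 37 without slide 1, 45 without slide 4, and 102 to 307 on leaving out 1 array (307 without vehicle replicate 3, which also gave the 1 call, Me1, in the pathway lists, against 0 in every other alternative). The median of the iron handling list was 0.047 with brightness and 0.023 without slide 4, against -0.05. Whether replicate numbers pair the samples was not settled. Deviations of same-numbered arrays correlated at -0.04 to 0.37, and 3 of 7 fipronil arrays correlated best with their own number. Most same-numbered arrays also shared a slide, so this check cannot tell a pairing from the slide. The replicate block is therefore given only as an alternative. The test by slide and the comparisons of probe pairs and of saturated probes were chosen after seeing the data.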
